A study of Mus musculus with 8 samples.

Results

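The 115 genes described here belong by name to 2 gene families of the mitochondrion. There are 42 genes named as mitochondrial carriers (Slc25a) and 73 named as mitochondrial ribosomal proteins. Of the 73, 45 are named for the large subunit (Mrpl) and 28 for the small subunit (Mrps). A name does not settle where a product sits, as with Slc25a17 and Mrps30 below. They were chosen by name alone, as every locus called Slc25a, Mrpl or Mrps followed by a number and at most 1 letter in the ribosomal names, out of 49868 loci with a gene name (76557 loci in all). Each name stood on 1 locus, and 7 processed copies (such as Mrps36-ps1 and Slc25a5-ps) were left out by the same rule. Slc25a1, Slc25a39 and Slc25a51 were not analysed here.

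The cells were mesenchymal stem cells (MSc), the bone-forming precursor cells of marrow and bone, grown from the hind leg long bones of 4 wildtype mice (C57Bl6/J) and 4 Has-tKO mice. Has-tKO mice lack Has1 and Has3 constitutively and lose Has2 after exposure to 4-hydroxytamoxifen. These genes encode the enzymes that make hyaluronan, a large sugar polymer of the extracellular matrix. Both genotypes were passaged 4 times, received 4-hydroxytamoxifen for 48 h in passages 2 and 3, and were profiled by RNA sequencing on day 7 of osteogenic culture, so the drug is shared and any difference between the genotypes includes all 3 deletions and any difference in strain. The labels do not name the Cre driver or the age of the mice, and the cells are primary cultures that can hold other marrow cells.

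Members of the Slc25a family are mostly proteins of the inner mitochondrial membrane, each of which passes a small set of solutes, such as ADP and ATP, phosphate, iron, carboxylates or amino acids. The mitochondrial ribosome is built from RNAs encoded in mitochondrial DNA and from proteins made in the cytosol from nuclear genes. It translates the few respiratory chain subunits that mitochondrial DNA encodes, so its proteins are needed for oxidative phosphorylation, which bone-forming cells use as they mature.

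Levels are deposited FPKM values, which correct fragment numbers for transcript length and library size. Fold changes are differences of mean log2(FPKM + 1), Has-tKO minus wildtype, given with their SE, and they understate changes of genes near or below 1 FPKM. Tests were made with limma on the 9916 named loci that reached 1 FPKM in 4 or more libraries, and a gene was called at a Benjamini-Hochberg adjusted p under 0.05 over all of them. The column totals ran from 198221 to 259871 FPKM, and the sequencing depth is unknown. Wildtype 1 stood apart: its median-ratio size factor was 0.684 against 0.990 to 1.11 in the other libraries, 61.5% of its FPKM lay on loci without a name (45.4% to 56.4% in the others), and it was the lowest library for 42 of the 84 tested members. The unscaled median fold change over all tested genes was 0.16, and median-ratio scaling brought it to 0.01, so the carriers and other main results are given both unscaled and scaled. Has3 was listed at 0.236, 0.415, 0.466 and 0.394 FPKM in wildtype and at 0.663, 0.576, 0.621 and 0.150 FPKM in Has-tKO, which does not check the labels because the deleted part of the gene is not given. Has1 and Has2 were not analysed here.

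Of the 115 genes, 84 were tested: 26 Slc25a, 37 Mrpl and 21 Mrps. The other 31 were too low (16, 8 and 7), and 17 of them stayed under 1 FPKM in every library. The untested carriers included Slc25a31 and Slc25a41, listed at 0 in 6 and 7 libraries, and Slc25a21, Slc25a34, Slc25a47 and Slc25a48, none of which reached 1 FPKM. Among the untested ribosomal proteins, Mrps22, Mrps35, Mrpl15 and Mrpl48 also stayed under 1 FPKM throughout.

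A RefSeq promoter window (GRCm38.p6, 250 bases before to 50 after the gene start) was found for 97 of the 115 genes. Of the genes described below, 6 are printed as picked examples. All printed ribosomal windows hold some of the letters searched for, where only 31 of 65 Mrpl and Mrps windows did. Each was searched on both strands for CCGGAAG (letters bound by the ETS factor GABPA), AAGATGGCG (YY1) and GCGCATG (the core of the NRF1 site). Where ETS and YY1 letters ran into each other they could share AAG, and such a joined form was found in 0 windows. Capitals mark the matches, in either orientation.
Mrps27 (chr13:99344536-99344835, plus strand) held ETS and YY1 letters.
Mrps27: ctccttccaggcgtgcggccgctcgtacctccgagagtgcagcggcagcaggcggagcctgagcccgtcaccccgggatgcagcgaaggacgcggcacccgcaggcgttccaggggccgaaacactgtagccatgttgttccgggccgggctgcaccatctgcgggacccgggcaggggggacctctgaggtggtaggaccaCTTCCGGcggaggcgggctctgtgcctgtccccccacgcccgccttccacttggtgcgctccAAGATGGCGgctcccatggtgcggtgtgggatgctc
Mrps16 (chr14:20393441-20393740, minus strand) held ETS letters at 2 places.
Mrps16: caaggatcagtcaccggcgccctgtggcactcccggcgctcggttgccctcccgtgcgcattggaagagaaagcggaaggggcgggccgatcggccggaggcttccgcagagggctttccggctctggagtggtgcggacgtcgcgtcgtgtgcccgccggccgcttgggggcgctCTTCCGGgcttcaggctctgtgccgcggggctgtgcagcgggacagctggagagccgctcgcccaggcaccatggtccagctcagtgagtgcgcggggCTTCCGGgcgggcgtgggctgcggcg
Mrpl43 (chr19:45006393-45006692, minus strand) also held ETS letters at 2 places.
Mrpl43: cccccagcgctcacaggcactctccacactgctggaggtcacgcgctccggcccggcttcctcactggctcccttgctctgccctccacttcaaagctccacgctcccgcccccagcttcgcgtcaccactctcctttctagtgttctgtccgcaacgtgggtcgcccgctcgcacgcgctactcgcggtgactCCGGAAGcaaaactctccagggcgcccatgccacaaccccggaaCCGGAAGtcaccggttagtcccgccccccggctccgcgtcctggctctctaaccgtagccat
Mrps11 (chr7:78782881-78783180, plus strand) held YY1 letters, and its last 141 bases are also part of the window of Mrpl46 on the opposite strand.
Mrps11: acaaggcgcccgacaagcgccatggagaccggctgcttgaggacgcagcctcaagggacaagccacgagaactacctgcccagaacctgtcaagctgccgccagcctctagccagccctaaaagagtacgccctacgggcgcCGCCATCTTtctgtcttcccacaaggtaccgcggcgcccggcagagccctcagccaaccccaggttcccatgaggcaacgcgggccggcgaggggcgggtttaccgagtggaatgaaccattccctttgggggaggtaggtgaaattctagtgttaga
Slc25a25 (chr2:32451421-32451720, minus strand) held ETS letters just inside the gene.
Slc25a25: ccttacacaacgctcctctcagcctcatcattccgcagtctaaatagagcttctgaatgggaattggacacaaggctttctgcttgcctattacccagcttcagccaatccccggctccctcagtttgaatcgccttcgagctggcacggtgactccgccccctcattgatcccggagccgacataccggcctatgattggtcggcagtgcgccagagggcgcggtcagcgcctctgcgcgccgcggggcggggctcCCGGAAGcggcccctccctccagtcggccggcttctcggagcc
Slc25a28 (chr19:43674832-43675131, minus strand) held none of the 3.
Slc25a28: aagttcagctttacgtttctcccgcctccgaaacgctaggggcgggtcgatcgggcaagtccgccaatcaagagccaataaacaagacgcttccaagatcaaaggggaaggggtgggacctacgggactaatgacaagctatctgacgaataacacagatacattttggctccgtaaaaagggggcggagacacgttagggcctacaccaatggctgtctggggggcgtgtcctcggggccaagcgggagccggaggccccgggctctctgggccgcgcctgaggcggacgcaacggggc

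The ETS letters stood in 22 of 65 Mrpl and Mrps windows (33.8%), against 7 of 32 Slc25a windows (21.9%), 18.9% of the windows of tested genes and 9.12% of all 27025 windows. The YY1 letters stood in 10.8% of Mrpl and Mrps windows, 3.13% of Slc25a windows, 3.37% of those of tested genes and 1.49% of all. The NRF1 core was as frequent in the Mrpl and Mrps windows (10.8%) as the YY1 letters, with 6.25% in Slc25a, 7.35% in tested genes and 4.04% in all. At least 1 of the 3 was present in 31 of 65 Mrpl and Mrps windows (47.7%), 8 of 32 Slc25a windows and 27.1% of windows of tested genes. The median GC content of these windows was 58.3% in Mrpl and Mrps, 59.7% in Slc25a and 61.0% in tested genes. These are matches of letters, with no test, and they are not binding sites.

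The families also differ in what lies next to them. A gene that starts within 1000 bases and runs the opposite way was found for 18 of 40 Mrpl genes (45.0%), 8 of 25 Mrps genes (32.0%) and 5 of 32 Slc25a genes (15.6%), against 1402 of 7025 tested genes and 12.3% of all genes with a window. Mrpl46 and Mrps11, a protein of each ribosomal subunit, start 42 bases apart, and their windows share 141 bases. Mrps12 starts 147 bases from Sars2, which encodes the mitochondrial seryl-tRNA synthetase. Mrpl43 starts 116 bases from Twnk, the helicase of mitochondrial DNA, and Mrpl47 starts 308 bases from Ndufb5, a subunit of complex I. The library type does not record the strand, so reads of overlapping neighbours cannot be told apart. Mrpl46 and Mrps11 were both too low to be tested: Mrps11 was listed at 0.405, 0.911, 0.835 and 0.541 FPKM in wildtype and 1.31, 1.01, 1.47 and 0.505 FPKM in Has-tKO, and Mrpl46 at 0.918, 0.501, 0.220 and 0.887 FPKM against 1.99, 0.795, 0.823 and 0.0728 FPKM. The levels of both overlapped between the genotypes.

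**Figure D1:**
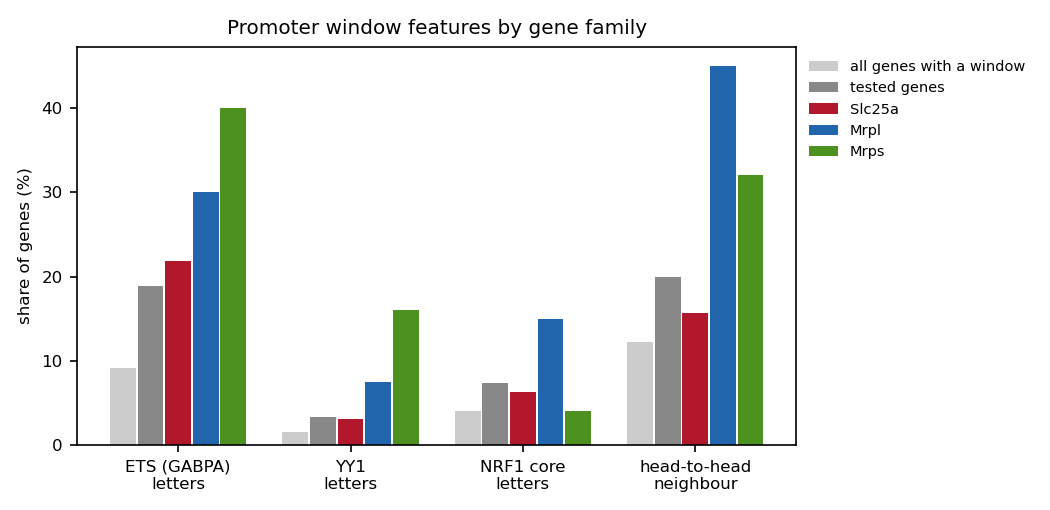
Share of genes (%, bars from 0) whose promoter window holds the ETS, YY1 or NRF1 core letters, and share with a head-to-head neighbour within 1000 bases, for all genes with a window, tested genes, Slc25a, Mrpl and Mrps. The Mrps bar for ETS letters (40.0%) and the Mrpl bar for head-to-head neighbours (45.0%) are the tallest, and the Slc25a bars lie close to those of tested genes.

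No member of either family was called between Has-tKO and wildtype, scaled or unscaled, where 1.77% of all tested genes were called unscaled (1.58% higher, 0.192% lower) and 2.82% after scaling (1.73% higher, 1.09% lower). Most carriers nevertheless stood higher in Has-tKO than the typical gene, while the ribosomal proteins sat near the typical gene with all 8 libraries in the fit. At an unadjusted limma p under 0.05, 7 of 26 carriers were higher and 0 lower in both versions (14.4% and 2.30% of all tested genes unscaled, 10.7% and 7.77% scaled). By the same measure 1 of 58 ribosomal proteins was higher unscaled (Mrpl21), and 2 were lower after scaling (Mrps16 and Mrps34). The median carrier lay 0.14 above the median of all tested genes unscaled and 0.12 above it scaled, and the median ribosomal protein lay at -0.02 and -0.0027. Without wildtype 1 the families lay closer together. The median carrier was then 0.13 (unscaled) and 0.12 (scaled) above the median of all tested genes, and the median ribosomal protein 0.06 and 0.07. The difference between the families was not tested.

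After scaling, the 95% interval of the fold change lay within 1 log2 unit of 0 on both sides for 24 of 26 Slc25a, 36 of 37 Mrpl and 20 of 21 Mrps genes. The same held for 8828 of all 9916 tested genes, so it is not particular to these families. Fold changes above 0 were found for 23 of 26 carriers and 48 of 58 ribosomal proteins unscaled, where 73.3% of all tested genes were above 0. With scaling these counts were 18 of 26 and 30 of 58, against 51.5%. The count of ribosomal proteins above 0 therefore depends on the scaling as that of all genes does.

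**Figure D2:**
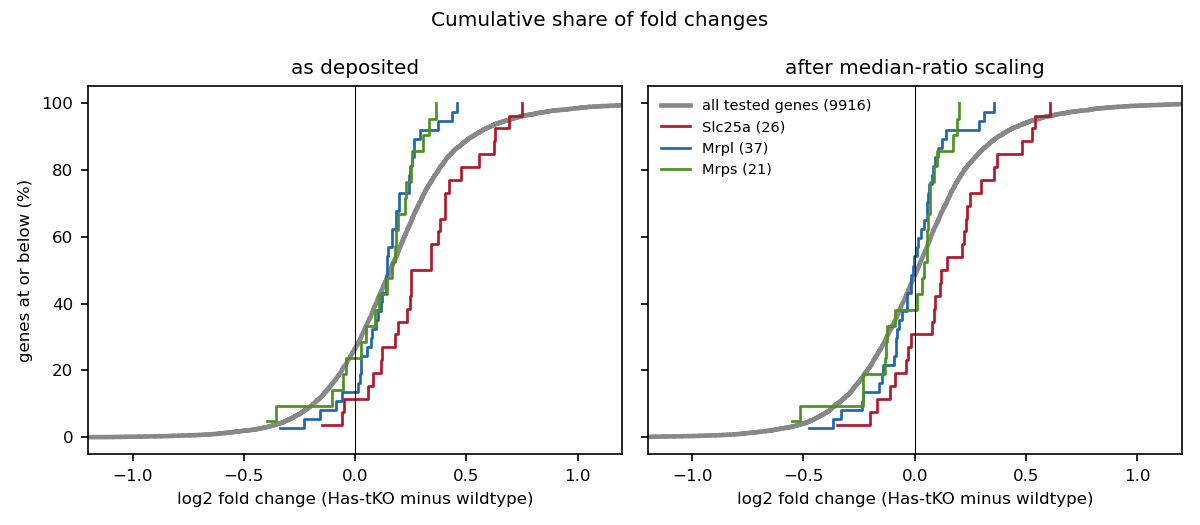
Cumulative share of genes (%, y axis) at or below each log2 fold change (x axis, Has-tKO minus wildtype), as deposited and after median-ratio scaling, for all 9916 tested genes and the 3 name groups. The Slc25a line lies to the right of the line of all genes over most of its range in both panels, and the Mrpl and Mrps lines are steeper than it and cross it near the middle.

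Within each library, the median carrier deviated from the wildtype mean by -0.14, 0.04, 0.08 and -0.02 in wildtype 1 to 4 and by 0.21, 0.16, 0.18 and 0.15 in Has-tKO 1 to 4 (log2 of scaled FPKM). All 4 Has-tKO libraries lay above all 4 wildtype libraries by this measure. Each wildtype library is part of the mean it is set against and the Has-tKO libraries are not, so this is a description. The median ribosomal protein stood at 0.23, -0.08, -0.12 and -0.01 in wildtype and at -0.05, -0.04, 0.01 and 0.08 in Has-tKO. Here wildtype 1 was the highest library of all, and the genotypes overlapped. Summed over all 42 carriers, tested or not, the unscaled level was 180.7, 246.8, 242.2 and 216.8 FPKM in wildtype and 262.7, 269.9, 272.4 and 285.4 FPKM in Has-tKO. With scaling the sums overlapped (263.98, 227.9, 231.2 and 219.0 against 243, 244, 249 and 275 FPKM), with wildtype 1 the second highest of the 8 libraries.

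Wildtype 1 departed from the other wildtype libraries by transcript length. Over 8433 tested loci with a known length, its deviation from the mean of the other wildtype libraries had a Spearman rho of -0.41 with the longest coding transcript. Shorter transcripts thus stood relatively higher there. Has-tKO 4 showed -0.26 against the other Has-tKO libraries, and the remaining libraries showed -0.02 to 0.35. These values share genes, and each library is part of the mean that the others of its genotype are set against, so they are a description. The median transcript of the tested carriers was 2699 bases long, against 1328 bases in the tested ribosomal proteins and 3152 bases in all tested genes. The part of transcript length in the difference between the families was not tested. Without wildtype 1 and Has-tKO 4, the median carrier lay 0.10 above the median of all tested genes unscaled and 0.11 above it scaled, and the median ribosomal protein lay 0.02 above it unscaled and 0.03 scaled. With only wildtype 1 left out, these values were 0.13 and 0.12 for the carriers and 0.06 and 0.07 for the ribosomal proteins.

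**Figure D3:**
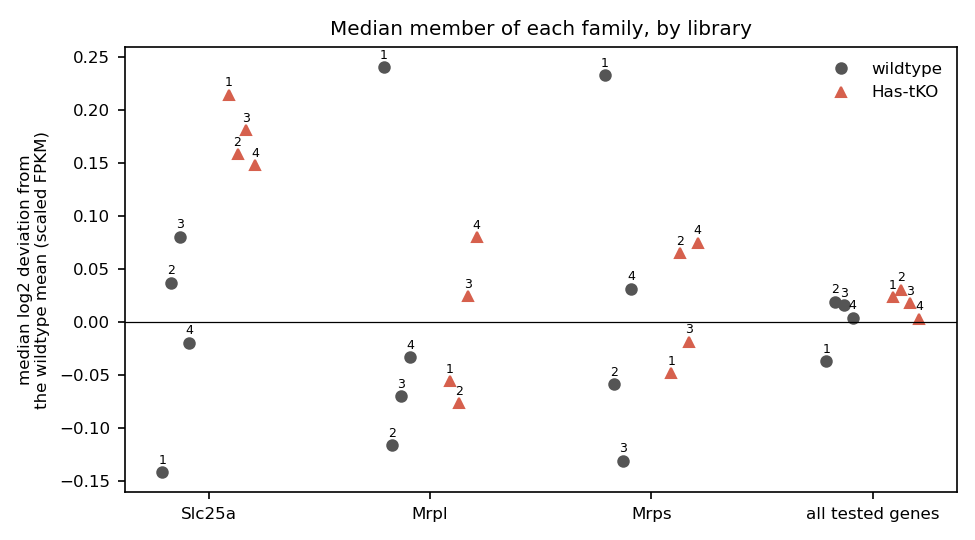
Median log2 deviation from the wildtype mean (scaled FPKM, y axis) of the tested Slc25a, Mrpl and Mrps members and of all tested genes, 1 point per library with its replicate number. The Has-tKO points of Slc25a lie at 0.15 to 0.21, above every wildtype point, and wildtype 1 is the highest point in both ribosomal groups.

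Both iron carriers stood higher in Has-tKO without passing the test. Slc25a28 (mitoferrin 2), which brings iron into mitochondria of most cells, was at 1.29, 2.27, 3.04 and 1.45 FPKM in wildtype and 4.17, 3.29, 3.26 and 5.22 FPKM in Has-tKO. Every Has-tKO library lay above every wildtype library, and the means were 2.01 ± 0.808 and 3.99 ± 0.926 FPKM (SD, n = 4). Its fold change was 0.75 (SE 0.21, adjusted p = 0.0926) unscaled and 0.61 (SE 0.18, adjusted p = 0.110) scaled, with a 95% interval of 0.20 to 1.01 for the scaled value. The adjusted p was 0.0399 without wildtype 3, the only single library whose removal led to a call of a member, and 0.109 to 0.279 without each of the other libraries (unscaled). Slc25a37 (mitoferrin 1), the form of blood cell precursors, was at 1.57, 4.73, 4.45 and 2.93 FPKM in wildtype and 6.96, 6.09, 5.30 and 4.07 FPKM in Has-tKO, with the genotypes overlapping through Has-tKO 4. The fold change came to 0.63 (SE 0.25, adjusted p = 0.228) unscaled and 0.48 (SE 0.19, adjusted p = 0.214) scaled, and 0.39 and 0.34 without wildtype 1. The ratio of Slc25a28 to Slc25a37, chosen after the values were seen, overlapped between the genotypes (0.619 ± 0.164 and 0.760 ± 0.351, SD, n = 4, exact permutation p = 0.6, two-sided, where 0.0286 is the smallest possible).

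The summed level of 14 macrophage and myeloid marker genes (of 19 listed) was mostly higher in Has-tKO. It was 367, 375, 613 and 356 FPKM in wildtype and 960, 720, 581 and 939 FPKM in Has-tKO. The genotypes overlapped only because wildtype 3 lay above Has-tKO 3. Of the 13 tested markers, 3 were called higher unscaled (Cd52, Cx3cr1 and Spi1) and 1 after scaling (Cx3cr1), and 0 were lower. Over all tested genes, 1.58% were called higher and 0.192% lower unscaled, and 1.73% and 1.09% scaled. These shares also apply to the marker lists that follow. None of the 14 myeloid markers was under 1 FPKM in all libraries. The summed osteoblast markers (7 of 11 listed) ran from 1561 to 1946 FPKM in wildtype and from 956 to 1360 FPKM in Has-tKO. None was called unscaled, and 2 were called lower after scaling. They did not all go the same way: 1 of the 7 had a fold change above 0 (0.62 unscaled and 0.44 scaled). All 6 tested chondrocyte markers (of 8 listed) had fold changes below 0 (median -0.81 unscaled, -0.98 scaled). Of these, 2 were called lower unscaled (Col10a1 and Col9a1) and 3 scaled (also Sox9). Their sum ran from 156 to 284 FPKM in wildtype and from 146 to 219 FPKM in Has-tKO. The part of these cell types in the carrier values was not tested, and in bulk RNA a change in the share of a cell type and a change in RNA per cell cannot be told apart.

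Among the carriers of nucleotides, phosphate and coenzymes, 11 were tested, with 2 higher and 0 lower at an unadjusted p under 0.05 in both versions. Of all tested genes, 14.4% were higher and 2.30% lower by this measure unscaled, and 10.7% and 7.77% scaled. Slc25a25, a calcium-regulated carrier that exchanges ATP-Mg for phosphate, was at 0.471, 1.11, 1.37 and 0.950 FPKM in wildtype and 2.36, 1.76, 1.66 and 2.31 FPKM in Has-tKO. The genotypes did not overlap. Its fold change was 0.63 (SE 0.18, adjusted p = 0.103) unscaled and 0.53 (SE 0.14, adjusted p = 0.0918) scaled, the lowest scaled adjusted p of all 84 members. In total 5 carriers did not overlap between the genotypes unscaled and stood higher in Has-tKO (Slc25a5, Slc25a25, Slc25a28, Slc25a38 and Slc25a43), which is 5 of 26 where 12.0% of all tested genes did. After scaling these were 4 (without Slc25a38), against 7.18%, and no carrier was lower without overlap.

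Of the 2 abundant ADP/ATP translocases, neither was called. Slc25a5 (ANT2), the form of proliferating cells, was at 31.3, 74.1, 71.8 and 54.5 FPKM in wildtype and 79.6, 82.4, 85.1 and 78.3 FPKM in Has-tKO. All Has-tKO libraries were close together and above all wildtype libraries, of which wildtype 1 was by far the lowest. The fold change of Slc25a5 was 0.56 (SE 0.24, adjusted p = 0.269) unscaled and 0.36 (SE 0.14, adjusted p = 0.225) scaled, and without wildtype 1 it was 0.29 and 0.24. Slc25a4 (ANT1), the form of heart and muscle, was at 54.2, 32.0, 30.8 and 35.5 FPKM in wildtype and 27.7, 29.0, 36.5 and 42.4 FPKM in Has-tKO. The genotypes overlapped, wildtype 1 was the highest library, and the fold change was -0.15 (SE 0.21, adjusted p = 0.753) unscaled and -0.35 (SE 0.30, adjusted p = 0.581) scaled. Without wildtype 1 the value of Slc25a4 was 0.03 unscaled and -0.03 scaled. The ratio of Slc25a5 to Slc25a4, which does not depend on scaling and was chosen after the values were seen, was 0.578, 2.31, 2.33 and 1.54 in wildtype and 2.87, 2.84, 2.33 and 1.85 in Has-tKO. The genotypes overlapped (exact permutation p = 0.171, two-sided, with 0.0286 the smallest possible), and wildtype 1 was again the lowest.

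The phosphate carrier Slc25a3 was at 21.0, 34.8, 34.8 and 31.3 FPKM in wildtype and 36.0, 34.6, 39.9 and 42.5 FPKM in Has-tKO. The groups overlapped at Has-tKO 2, and the fold change was 0.34 (SE 0.19, adjusted p = 0.376) unscaled and 0.14 (SE 0.11, adjusted p = 0.533) scaled. Without wildtype 1 the unscaled value was 0.18, and without Has-tKO 4 the scaled value was 0.078. Slc25a42, which carries coenzyme A, was low (1.09 ± 0.0940 and 1.01 ± 0.172 FPKM, SD, n = 4), with a fold change of -0.06 (SE 0.15) unscaled and -0.17 (SE 0.13) scaled. Slc25a17, a carrier of the peroxisome rather than the mitochondrion, had 5.12 ± 1.22 and 5.39 ± 0.512 FPKM, with fold changes of 0.08 unscaled and -0.09 scaled.

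Among the tested carboxylate and fatty acid carriers (3), none was higher or lower at an unadjusted p under 0.05. Slc25a11, which exchanges oxoglutarate and malate in the malate-aspartate shuttle, was at 26.5, 23.4, 25.2 and 24.8 FPKM in wildtype and 24.7, 28.9, 24.1 and 37.6 FPKM in Has-tKO, with Has-tKO 4 the highest and the groups overlapping. Its fold change was 0.18 (SE 0.17) unscaled and -0.02 (SE 0.21) scaled. Slc25a20, the carnitine and acylcarnitine carrier of fatty acid oxidation, averaged 4.12 ± 0.501 FPKM in wildtype cells, against 4.34 ± 0.579 FPKM without the synthases (SD, n = 4), with fold changes of 0.06 unscaled and -0.11 scaled. The dicarboxylate carrier Slc25a10 stood at 1.95 ± 0.787 and 2.86 ± 0.360 FPKM, with fold changes of 0.42 (adjusted p = 0.324) and 0.30 (adjusted p = 0.333).

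The amino acid carriers included 6 tested genes, 1 of them higher at an unadjusted p under 0.05 (14.4% of all tested genes unscaled, 10.7% scaled). This was Slc25a38, which brings in glycine for haem synthesis, at 3.44, 4.82, 4.61 and 4.39 FPKM in wildtype and 5.95, 6.53, 5.37 and 6.17 FPKM in Has-tKO. Its levels did not overlap unscaled and overlapped after scaling, with fold changes of 0.40 (SE 0.15, adjusted p = 0.201) and 0.23 (SE 0.10, adjusted p = 0.259). The aspartate and glutamate carriers Slc25a12 and Slc25a13, the other arm of the malate-aspartate shuttle, had unscaled fold changes of 0.12 (SE 0.20) and -0.05 (SE 0.16) and scaled ones of -0.03 (SE 0.12) and -0.20 (SE 0.11), so the sign of Slc25a12 turned with scaling. Slc25a12 was at 3.52 ± 1.12 and 3.78 ± 0.261 FPKM and Slc25a13 at 2.96 ± 0.526 and 2.82 ± 0.468 FPKM in wildtype and Has-tKO (SD, n = 4). Both overlapped between the genotypes.

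Slc25a45 and Slc25a43 complete the 7 carriers with an unadjusted p under 0.05. Slc25a45 was at 1.75, 4.07, 4.71 and 2.80 FPKM in wildtype and 6.40, 5.83, 4.30 and 6.65 FPKM in Has-tKO, where Has-tKO 3 lay below wildtype 3. Slc25a45 had a fold change of 0.69 (SE 0.23, adjusted p = 0.150) unscaled and 0.54 (SE 0.18, adjusted p = 0.142) scaled. Slc25a43 was at 0.586, 1.40, 1.44 and 1.48 FPKM in wildtype and 2.79, 1.93, 1.77 and 1.79 FPKM in Has-tKO, without overlap. Slc25a43 had a fold change of 0.47 (SE 0.19, adjusted p = 0.228) unscaled and 0.37 (SE 0.15, adjusted p = 0.222) scaled. In 4 of these 7 carriers (Slc25a5, Slc25a25, Slc25a28 and Slc25a43), the genotypes did not overlap in either version. The 7 were picked by p from the same values, so this overlap count is no separate support.

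**Figure D4:**
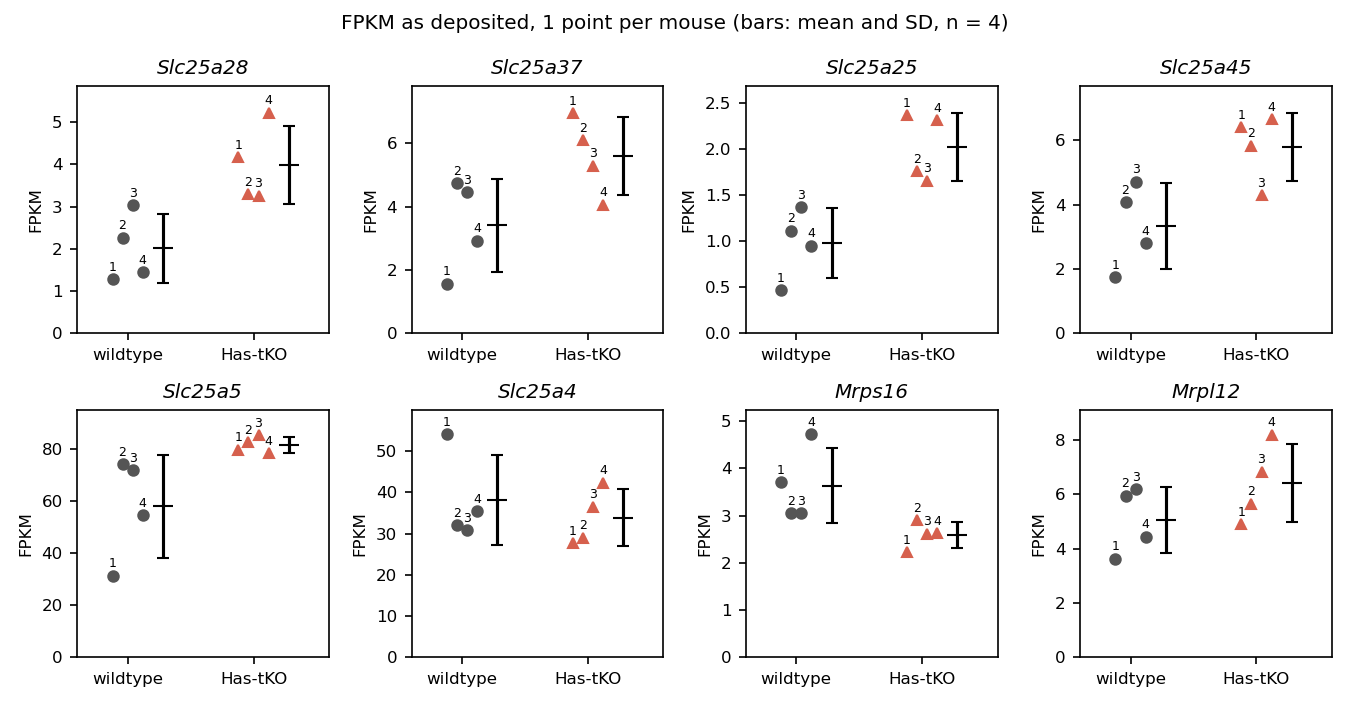
FPKM as deposited (y axis, from 0) of 6 carriers and 2 ribosomal proteins, 1 point per mouse with its replicate number, and the mean with SD (n = 4). Wildtype and Has-tKO points do not overlap for Slc25a28, Slc25a25, Slc25a5 and Mrps16, and wildtype 1 is the highest point for Slc25a4.

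No large-subunit gene was called in either direction. Wildtype means ran from 0.803 FPKM (Mrpl47) to 10.7 FPKM (Mrpl10 and Mrpl28) among the tested genes, with a median of 3.03 FPKM. Mrpl12, a protein of the ribosome stalk that also binds the mitochondrial RNA polymerase, was at 3.63, 5.95, 6.17 and 4.43 FPKM in wildtype and 4.91, 5.65, 6.83 and 8.19 FPKM in Has-tKO. The groups overlapped, and the fold change was 0.29 (SE 0.20, adjusted p = 0.477) unscaled and 0.12 (SE 0.16, adjusted p = 0.723) scaled. The highest scaled fold changes of the large subunit were those of Mrpl21 (0.35, SE 0.20), Mrpl50 (0.31, SE 0.22) and Mrpl47 (0.29, SE 0.15), and the unscaled ones were 0.46, 0.44 and 0.37. Mrpl21 rested on Has-tKO 4, at 2.63 FPKM against 1.03, 1.26 and 1.21 FPKM in the other Has-tKO libraries and 0.501 to 1.14 FPKM in wildtype, and its scaled fold change was 0.16 without that library. Mrpl50 rested on a low wildtype 1, at 0.813 FPKM against 3.12 to 3.66 FPKM in the other wildtype libraries and 3.04 to 4.33 FPKM in Has-tKO, and without wildtype 1 its scaled fold change was 0.072. Both overlapped between the genotypes.

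At the lower end stood Mrpl52 (-0.48, SE 0.28), Mrpl44 (-0.37, SE 0.24) and Mrpl17 (-0.33, SE 0.19) on the scaled scale, with unscaled values of -0.34, -0.23 and -0.16. Without wildtype 1 the scaled values were -0.22, -0.58 and -0.15, without Has-tKO 1 that of Mrpl44 was -0.21, and without Has-tKO 4 the unscaled value of Mrpl52 was -0.17. Mrpl44, which resembles an RNase, was at 1.49, 5.35, 4.25 and 4.65 FPKM in wildtype and 1.83, 4.33, 3.46 and 2.66 FPKM in Has-tKO. Wildtype 1 and Has-tKO 1 were the lowest libraries of their genotypes. Mrpl52 was at 2.64, 1.07, 1.57 and 1.50 FPKM in wildtype and 1.78, 1.14, 1.16 and 0.481 FPKM in Has-tKO. No large-subunit gene had levels without overlap after scaling. Unscaled, 2 did (Mrpl13 and Mrpl28, both higher, with 12.0% as the share of all tested genes), and their scaled fold changes were 0.03 (SE 0.13) and 0.06 (SE 0.13).

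The small subunit held the only 2 members with an unadjusted p under 0.05 in the lower direction, both after scaling (7.77% of all tested genes). Mrps16, a protein of the small-subunit body, was at 3.71, 3.06, 3.05 and 4.72 FPKM in wildtype and 2.23, 2.90, 2.62 and 2.63 FPKM in Has-tKO. Every Has-tKO library lay below every wildtype library, scaled and unscaled, where 1.53% of all tested genes did unscaled and 5.76% scaled. The fold change of Mrps16 was -0.35 (SE 0.16, adjusted p = 0.300) unscaled and -0.51 (SE 0.18, adjusted p = 0.168) scaled, with a 95% interval of -0.92 to -0.11 for the scaled value. Mrps34 was at 4.12, 3.53, 3.43 and 3.09 FPKM in wildtype and 2.23, 1.52, 4.23 and 2.31 FPKM in Has-tKO, where Has-tKO 3 was the highest of all 8 libraries. Its fold change was -0.39 (SE 0.21, adjusted p = 0.367) unscaled and -0.55 (SE 0.24, adjusted p = 0.256) scaled, and the unscaled value was -0.24 without Has-tKO 2 and -0.60 without Has-tKO 3. Mrps34 and 3 large-subunit genes lie within 10 Mb of a targeted gene: Mrps34, Mrpl18 and Mrpl28 near Has1 and Mrpl13 near Has2. None of the 4 was called, as was true of all members in both fits. They include Mrpl13 and Mrpl28, the large-subunit genes without overlap unscaled. An effect of position was not tested.

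Mrps12, a protein of the decoding centre, was at 3.53, 2.38, 2.11 and 3.06 FPKM in wildtype and 3.74, 3.27, 2.87 and 5.77 FPKM in Has-tKO. Its levels overlapped, and its fold change was 0.36 (SE 0.20, adjusted p = 0.389) unscaled and 0.20 (SE 0.25, adjusted p = 0.727) scaled. With 1 library left out the scaled value of Mrps12 ran from 0.020 (without Has-tKO 4) to 0.41 (without wildtype 1). Mrps27, an RNA-binding protein of the pentatricopeptide class, was at 2.39, 6.26, 3.88 and 4.34 FPKM in wildtype and 5.83, 5.24, 4.60 and 4.04 FPKM in Has-tKO, with fold changes of 0.23 (SE 0.22) and 0.07 (SE 0.15). Mrps7 (0.07, SE 0.09) and Mrps17 (0.10, SE 0.11) had narrow scaled intervals, of -0.14 to 0.28 and -0.14 to 0.34, and unscaled fold changes of 0.22 (SE 0.16) and 0.25 (SE 0.17). The product of Mrps30, despite its name, sits in the large subunit, and its fold change was -0.10 (SE 0.18) unscaled and -0.23 (SE 0.18) scaled.

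**Figure D5:**
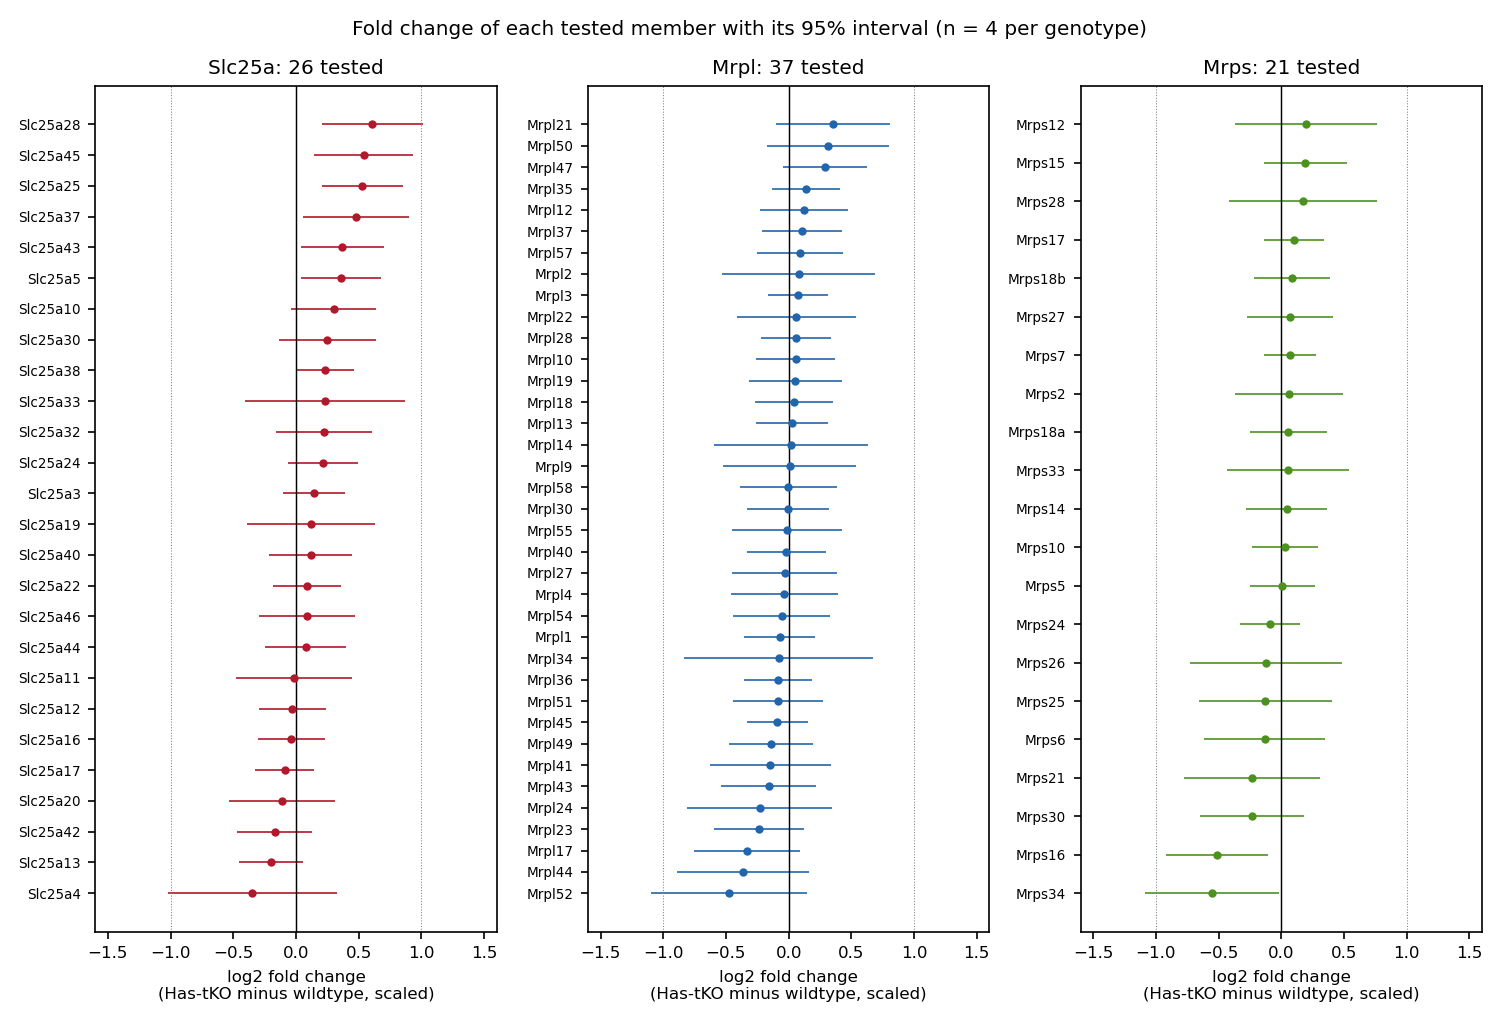
Scaled log2 fold change (x axis, Has-tKO minus wildtype) of each of the 84 tested members with its 95% interval, in 3 panels, with n = 4 per genotype. In Slc25a, 7 intervals lie above 0 and none below, in Mrpl all intervals include 0, and in Mrps those of Mrps16 and Mrps34 lie below 0.

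Members of a family varied together only weakly within a genotype. The mean pairwise correlation of scaled log2 values, centred on the genotype, was 0.013 in Slc25a, 0.167 in Mrpl and 0.070 in Mrps, with 0.004 over all tested loci. It is a description over 8 libraries of unknown depth, each scaled by its own size factor. Wildtype 1 stood apart in Mrpl, where its median scaled deviation from the wildtype mean was 0.24 (log2). That deviation was -0.12 in wildtype 2, -0.07 in wildtype 3 and -0.03 in wildtype 4. The part of wildtype 1 in the Mrpl correlation was not tested. The median SD within a genotype was 0.202 in Slc25a, 0.236 in Mrpl, 0.281 in Mrps and 0.223 in all tested loci (log2).

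The other genes that serve mitochondrial translation and carrier function were counted from lists. Of the mitochondrial translation factors (11 tested), tRNA synthetases (14), assembly and RNA handling factors (17), mitochondrial DNA and transcription genes (9), regulators of mitochondrial biogenesis (7) and the carrier import machinery (13), 0 were called in either direction, scaled or unscaled. By unadjusted limma p under 0.05 unscaled, 1, 0, 0, 1, 2 and 2 of them were higher and 0 were lower, where 14.4% of all tested genes were higher and 2.30% lower. With scaling, 1, 0, 0, 1, 1 and 1 were higher, and 1 translation factor and 1 tRNA synthetase were lower (10.7% and 7.77% of all tested genes). Taco1, which activates translation of a complex IV subunit, averaged 4.75 ± 0.730 FPKM in wildtype, against 3.81 ± 0.355 FPKM in Has-tKO (SD, n = 4), with a fold change of -0.25 (SE 0.16) unscaled and -0.41 (SE 0.10, adjusted p = 0.0705) scaled. Lrpprc, which stabilises mitochondrial messenger RNA, stood at 2.60 ± 0.688 and 4.20 ± 0.218 FPKM, with a fold change of 0.55 (SE 0.17) unscaled and 0.40 (SE 0.11, adjusted p = 0.0975) scaled. Ucp2, an Slc25 family member outside the name rule, stood at 11.3 ± 5.87 and 20.9 ± 1.91 FPKM, with a fold change of 0.98 (SE 0.31) unscaled and 0.80 (SE 0.24, adjusted p = 0.112) scaled.

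The lists of cytosolic ribosomal proteins and respiratory chain subunits had no called gene either. The median of 72 tested cytosolic ribosomal protein genes was -0.28 relative to all tested genes unscaled and -0.32 scaled, with 0 called in either version by limma, and 2 of 72 lower at an unadjusted p under 0.05 unscaled and 8 of 72 scaled, against 2.30% and 7.77% of all tested genes. Their median transcript was 950 bases long. Nuclear-encoded respiratory chain subunits (73 tested) had a median of -0.11 unscaled and -0.13 scaled relative to all tested genes. Their median fold change itself was 0.05 unscaled and -0.12 scaled. Of these genes 0 were called. At an unadjusted limma p under 0.05, 2 were lower and 1 higher unscaled, and 5 lower and 0 higher scaled. The difference of these lists from the mitochondrial ribosomal proteins was not tested.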

How the data were processed

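RNA sequencing libraries of 8 mice (4 per genotype, each mouse separate) were compared. The deposited table gives FPKM per locus. The tools named by the submitters' processing notes are StringTie, HISAT2, fastp, bcl2fastq and DESeq2, and the builds are hg38 and GRCm39. Tool versions, options and what hg38 was for: not given in the sources used here. Per the labels' protocols, 100 ng of RNA was depleted of ribosomal RNA and tagmented. Columns were matched to libraries by name.

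No counts were used. Low values gave no common step worth 1 read: over 28 pairs of libraries the commonest ratio of values under 0.5 FPKM held 0.444% to 0.763% of loci, against 0.248% to 0.365% in neighbouring ratio bins (0.01 log2 wide). Depth is therefore unknown, and p-values rest on the spread between mice.

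Values were fitted as log2(FPKM + 1) with limma 3.58.1 in R 4.3.3 (empirical Bayes, intensity trend, two-sided, Benjamini-Hochberg over 9916 loci), with no rescaling. A second fit used median-ratio size factors from 7435 loci. The fit was checked on simulated data. Alternatives were another pseudocount, filters, scaling, no trend, a replicate block and leaving out libraries. Scaling together with leaving out wildtype 1 and Has-tKO 4 was chosen after seeing the data. Transcript lengths came from GENCODE M21, and promoter windows from RefSeq.

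The genes, gene lists and markers were chosen with earlier results of these data known. Genes named are the 5 smallest p in each direction per name group after scaling, plus fixed anchors (Slc25a3, Slc25a4, Slc25a5, Slc25a11, Slc25a12, Slc25a13, Slc25a20, Slc25a28, Slc25a37, Mrpl12, Mrps12 and Mrps27). Others, such as Slc25a10, Slc25a38, Mrpl10, Mrpl13, Mrpl18, Mrpl28, Mrpl43, Mrpl46, Mrps11 and the genes listed as untested, were chosen after their values were seen.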

Additional observations from a re-analysis of the deposited data

Results flagged for a closer look

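Of 76 groups of 4 libraries examined, 4 had a library whose gap to its nearest neighbour took up more of the range than Dixon's 95% critical value allows, close to the rate of about 1 in 20 that chance gives. Slc25a43 was low in wildtype 1 (0.586 FPKM, where the other wildtype libraries had 1.40 to 1.48 FPKM) and high in Has-tKO 1 (2.79 FPKM, against 1.77 to 1.93 FPKM). Mrpl49 was low in wildtype 1, at 4.01 FPKM against 4.91 to 5.02 FPKM. Mrpl21 was high in Has-tKO 4, at 2.63 FPKM against 1.03 to 1.26 FPKM.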

How the results depend on the processing

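The absence of called members held for both families under all alternatives except 1: without wildtype 3, Slc25a28 was called higher (0.90), so the count of called carriers ran from 0 to 1 over the fits that leave out 1 library. The number of called genes over all tested loci was 176, and it was 280 with median-ratio scaling, 273 with a common total, 111 with a pseudocount of 0.1, 2 with no filter on low values, 320 without wildtype 1 and Has-tKO 4, and 5 to 352 when 1 library was left out, scaled or not (lowest without Has-tKO 1, highest without wildtype 3 after scaling). Each single library moved it unscaled: 349, 77, 348 and 10 genes were called without wildtype 1 to 4, and 5, 61, 68 and 40 without Has-tKO 1 to 4. The median carrier stayed above the median of all tested genes, by 0.11 to 0.19 when 1 library was left out, scaled or not, and by 0.10 to 0.18 otherwise. The median ribosomal protein stayed between -0.062 and 0.11.

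With the replicate number as a replicate block, 147 genes were called, and 40 with the block after scaling, none of them a member. The numbers do not pair the mice: deviations of same-numbered libraries correlated at -0.083, 0.31, -0.12 and -0.059, and only library 2 correlated best with its own number.

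Of 35 named genes under 26 alternatives (871 values), 787 kept their direction and side of the threshold, 83 changed sign and 1 crossed the threshold. No value that changed sign belonged to a called gene. With scaling these were Slc25a17 (-0.089), Slc25a20 (-0.11), Mrpl49 (-0.14), Mrps24 (-0.090), Slc25a11 (-0.019) and Slc25a12 (-0.030), with the same values under the block. A common total turned Slc25a20 (-0.0014) and Mrpl49 (-0.035). Leaving out wildtype 1 and Has-tKO 4 turned Mrpl49 (-0.14), Mrps30 (0.064), Mrps21 (0.13) and Slc25a12 (-0.040). With scaling as well it turned Slc25a17 (-0.059), Slc25a20 (-0.0054), Mrpl12 (-0.0038), Mrpl49 (-0.20), Mrps30 (0.016), Mrps21 (0.065), Mrps24 (-0.032) and Slc25a12 (-0.10). When 1 library was left out, the ranges unscaled and then scaled were Mrpl12 0.17 to 0.39 and -0.00035 to 0.23, Mrpl49 -0.076 to 0.094 and -0.26 to -0.065, Mrps21 -0.23 to 0.13 and -0.41 to -0.070, Mrps24 0.035 to 0.13 and -0.12 to -0.016, Mrps27 0.037 to 0.40 and -0.011 to 0.19, Mrps30 -0.21 to 0.045 and -0.33 to -0.099, Slc25a11 0.048 to 0.26 and -0.17 to 0.15, Slc25a12 -0.078 to 0.23 and -0.12 to 0.024, Slc25a13 -0.15 to 0.031 and -0.25 to -0.13, Slc25a17 -0.052 to 0.19 and -0.14 to -0.040, Slc25a20 -0.0087 to 0.13 and -0.19 to 0.079, Slc25a4 -0.26 to 0.029 and -0.49 to -0.028. The cause was not tested. Depth is unknown, many members lie near 1 FPKM, and 4 mice per genotype limit the precision of each fold change.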
